A study of Mus musculus with 12 samples.

Results

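Genes of the oxidative stress and metallothionein responses were followed in the mouse cecum after surgical cauterization. The 10 genes were chosen by symbol among the non-control spots of the array, and the symbols Hmox1, Nqo1, Gclm, Srxn1, Txnrd1, Mt1, Mt2, Slc7a11, Gpx2 and Sod2 were carried by 16 probes. These 10 genes are a small set of the 37074 gene names that were measured. Total RNA came from the cecum of mice that the labels give as male, C57BL/6 being the wild-type strain of the methods, and age was not given in the sources used here. There were 4 groups of 3 mice, namely a sham operation sampled at 0 h and 3 groups whose cecum had been cauterized with bipolar forceps in coagulation mode and was taken at 3 h, at 12 h or at 72 h, which is a model of postoperative adhesion formation. No engineered allele is named for any of these samples, and the sham group was sampled at a single time, so that laparotomy, anesthesia and elapsed time cannot be told apart from the burn. Each value below is the log2 probe intensity minus the 75th percentile of its array, each difference is on the log2 scale, and a gene was called when the fold change exceeded 2 and the adjusted p of limma was below 0.05.

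These genes belong to linked defence systems. NRF2, encoded by Nfe2l2, is held in the cytosol by KEAP1 until oxidants or electrophiles release it, and it then pairs with small MAF proteins on antioxidant response elements, from which BACH1 displaces it. Metallothioneins are small cysteine-rich proteins that bind zinc and copper and scavenge oxidants, and MTF1 induces them through metal response elements when free zinc rises. In the gut, the epithelium, the infiltrating phagocytes and the haem from spilled blood are all known settings for these genes.

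Signal was measured on all arrays, with 60.2% to 65.2% of probes well above background and no saturated spot. The 75th percentile intensity, which the scaling takes out, was 179.5 to 190.1 on the 3 h arrays and 242.7 to 260.8 on the 72 h arrays. The sham and 12 h arrays lay between, so brightness went with group and slide. Replicate arrays of a group correlated at 0.985 to 0.992 over all probes. Of the 2 slides, the first held the sham and 3 h arrays and 2 of the 12 h arrays, and the second held the remaining 12 h array and the 72 h arrays. All 12 epithelial markers, among them Epcam, Vil1 and Cdx2, were well above background on all arrays. The label of male sex was not borne out by the X and Y chromosome genes, since Xist was well above background on 12 of 12 arrays, Ddx3y and Eif2s3y on 0, and Uty on 1, while the brightest Kdm5d probe was so on 12. As these are bulk tissue samples, fewer cells of a type and less RNA per cell cannot be told apart.

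The response was early for some of the genes and lasting for others. At 3 h, 5 of the 10 genes had risen, namely Slc7a11, Mt2, Hmox1, Mt1 and Sod2, against 7.37% of all genes called, 3.26% higher and 4.11% lower. At 12 h, 5 had risen, with Gpx2 in place of Mt1, against 9.06% of all genes called, 4.1% higher and 4.96% lower. At 72 h, Hmox1 and Slc7a11 alone were called, both higher, against 8.85% of all genes called, 4.55% higher and 4.3% lower. None of the 10 was called lower than sham at any time in the main fit. Among the alternatives, Nqo1 at 72 h was called lower without replicate 2 of the 72 h group (-1.03, limma adjusted p = 0.00572). Without the fold change threshold, Nqo1 (-0.89), Gclm (-0.69) and Srxn1 (-0.54) passed as lower at 72 h (limma adjusted p of 0.00578, 0.00826 and 0.0241). The median difference of the 10 genes over the 3 times was 0.89, 0.997 and 0.10, beside 0.08, -0.01 and -0.14 over all genes. By limma's moderated F-test, 10 of 10 genes differed among the 4 groups, as did 39.3% of all genes. The 3 comparisons share the sham arrays.

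**Figure D1:**
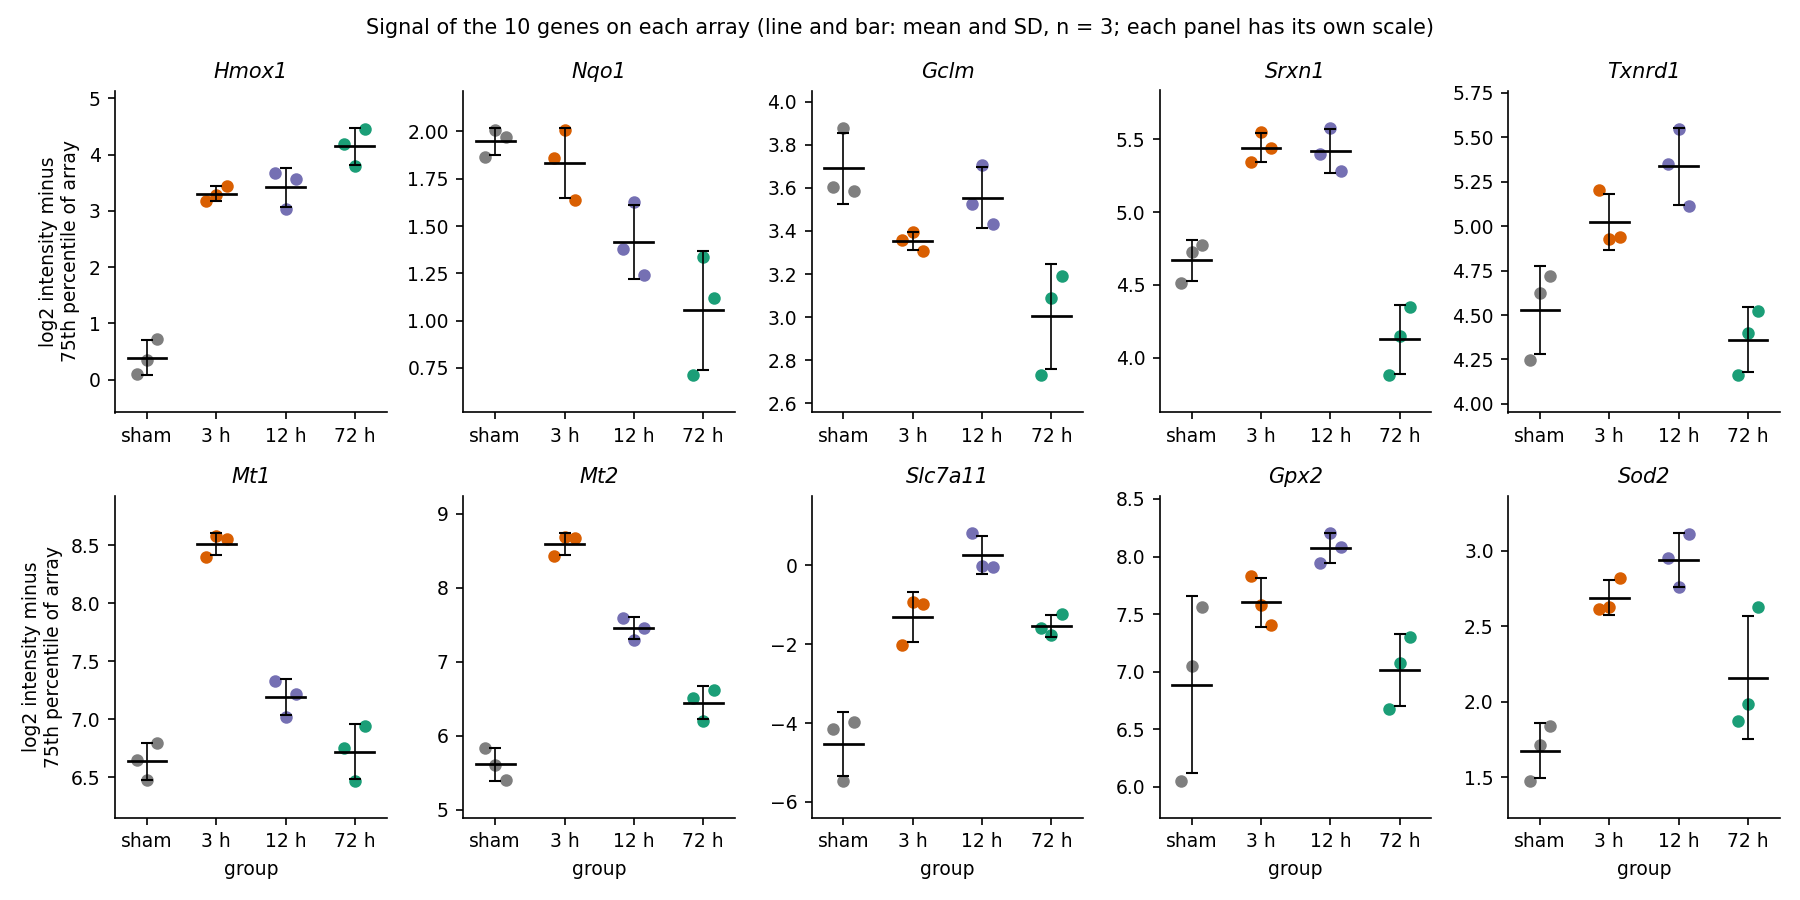
Points give, relative to the 75th percentile of each array, the log2 intensity (y axis) for each mouse by group (x axis), with the mean and SD of 3 mice; each panel has its own scale. The 3 h points of Mt1 and Mt2 lie above all others, while Hmox1 stays high to 72 h and Nqo1 is lowest at 72 h.

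**Figure D2:**
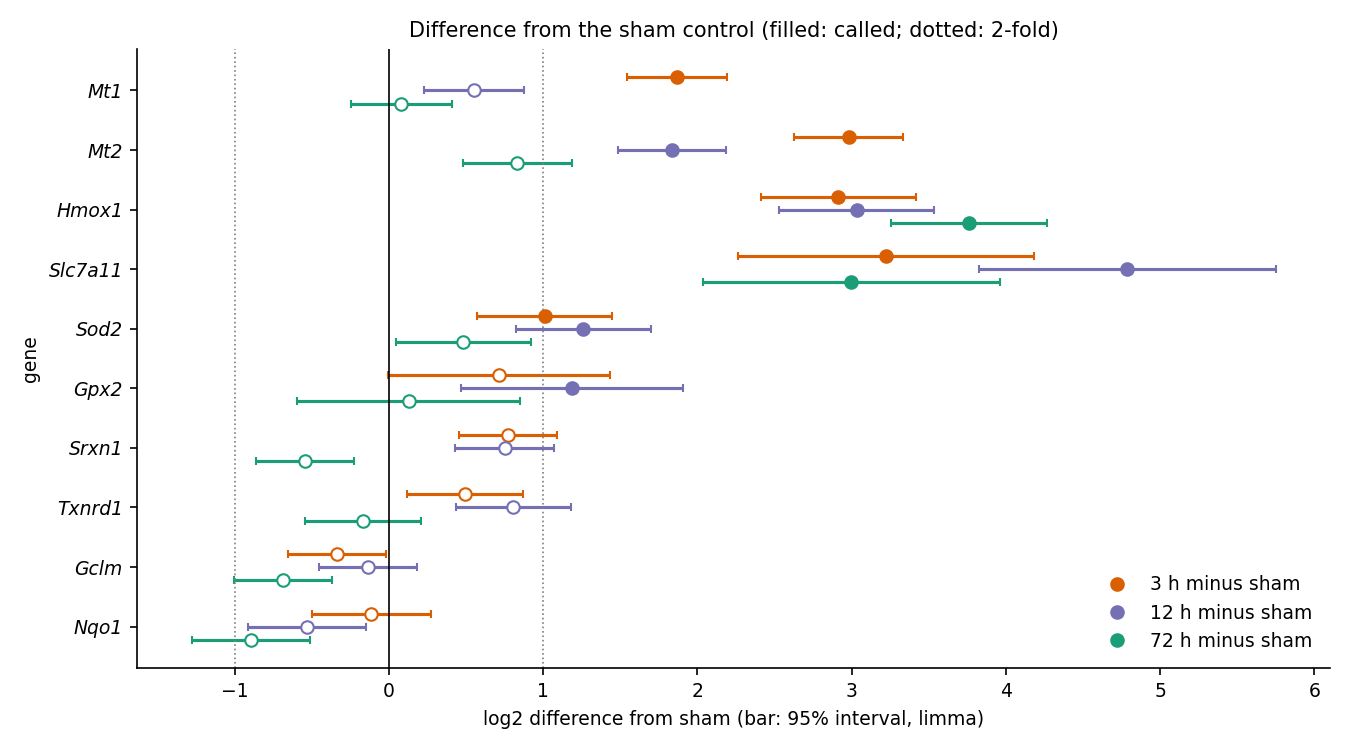
Points give the log2 difference from sham (x axis) for each gene (y axis) at the 3 times, bars give the 95% interval from limma, filled points are called and the dotted lines mark a 2-fold difference. Slc7a11 at 12 h has the highest value, 4.79, and Nqo1 at 72 h the lowest, -0.89.

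Mt1 and Mt2, the widely expressed metallothioneins, were highest at 3 h and then declined. Their probes lie close together on mm9, at chr8:96704165-96704224 for Mt1 and chr8:96697371-96697430 for Mt2. Since both rose together, their promoters are shown, read from RefSeq on GRCm38.p6, with the metal response element cores TGCACNC and TGCGCNC in capitals on either strand. The lines give the 250 bases before the RefSeq start, chr8:94178839-94179088 for Mt1 and chr8:94172368-94172617 for Mt2, both on the plus strand, and then the 30 bases that follow it.

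Mt1 before the start: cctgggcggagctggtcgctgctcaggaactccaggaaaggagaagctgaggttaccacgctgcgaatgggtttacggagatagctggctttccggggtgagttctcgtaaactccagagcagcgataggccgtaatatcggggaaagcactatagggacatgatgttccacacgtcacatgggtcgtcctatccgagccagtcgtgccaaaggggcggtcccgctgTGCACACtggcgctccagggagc
Mt1 after the start: tcTGCACTCcgcccgaaaagTGCGCTCggc
Mt2 before the start: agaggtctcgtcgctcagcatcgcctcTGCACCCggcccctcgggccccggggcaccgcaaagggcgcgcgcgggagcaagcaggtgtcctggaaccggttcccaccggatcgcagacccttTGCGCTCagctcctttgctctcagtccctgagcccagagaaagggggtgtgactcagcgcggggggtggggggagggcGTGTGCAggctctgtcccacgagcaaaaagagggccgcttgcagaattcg
Mt2 after the start: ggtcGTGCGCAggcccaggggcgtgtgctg

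The window of 300 bases ran from 250 before to 50 after the start. Over it the Mt1 promoter held 3 such cores and the Mt2 promoter 4. The Gclm window also held 3 and the Srxn1 window 1, though neither gene was called against sham at any time. No such core was found in the windows of Nqo1, Txnrd1, Slc7a11, Gpx2 and Sod2. A count of 3 was therefore not particular to the metallothioneins or to genes that rose. Of 32851 RefSeq windows of the same length, 25.7% held at least 1 core of either form, 1.97% at least 3 and 0.517% at least 4. A match of these letters is a description of the sequence and was not tested for binding.

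Mt1 read 6.65, 6.48 and 6.79 in the sham mice, 8.40, 8.58 and 8.55 in the 3 h mice, 7.33, 7.02 and 7.22 in the 12 h mice, and 6.75, 6.47 and 6.94 in the 72 h mice. All 3 h mice lay above every other mouse, the 12 h mice lay between, and the 72 h mice overlapped the sham mice. The rise at 3 h was 1.87 (SE 0.15, limma adjusted p = 5.505e-05), a 3.65-fold change. At 12 h the difference was 0.55 (95% interval 0.22 to 0.88, limma adjusted p = 0.0238), below the 2-fold threshold, and at 72 h it was 0.08 (95% interval -0.25 to 0.41). The fall from 3 h to 12 h, -1.32 (SE 0.15, limma adjusted p = 0.00143), was itself called.

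A second Mt1 probe, at chr8:96703844-96703903 on mm9 and listed under a predicted transcript, was dimmer, though well above background on 12 of 12 arrays. It read -2.91, -3.09 and -3.31 in the sham mice, 0.19, 0.32 and -0.12 in the 3 h mice, -2.04, -2.28 and -2.20 in the 12 h mice, and -1.53, -3.01 and -2.17 in the 72 h mice. Its order was that of the brighter probe, with the 3 h mice apart from all others. Its rise at 3 h was 3.24 (SE 0.31, limma adjusted p = 0.000146), and its 72 h difference of 0.87 was not called (limma adjusted p = 0.0746).

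Mt2 read 5.84, 5.60 and 5.40 in the sham mice, 8.42, 8.68 and 8.67 in the 3 h mice, 7.60, 7.30 and 7.45 in the 12 h mice, and 6.51, 6.19 and 6.62 in the 72 h mice. No 2 groups overlapped, and the order was 3 h, 12 h, 72 h and sham. The rise was 2.98 at 3 h (SE 0.16, limma adjusted p = 8.377e-06) and 1.84 at 12 h (SE 0.16, limma adjusted p = 5.73e-05). At 72 h the difference of 0.83 had a limma adjusted p of 0.00524 but stayed below 2-fold, while after quantile normalization it was 1.01 (limma adjusted p = 0.00365) and was called. Mt2 fell from 3 h to 12 h by 1.14 (limma adjusted p = 0.00311), which was -0.95 and not called after quantile normalization. From 12 h to 72 h Mt2 fell by 1.004 (limma adjusted p = 0.0025), at the edge of 2-fold. This fall was -0.75 after quantile normalization, -0.93 with the 75th percentile over probes above background and -0.98 with normexp. It was -0.88 without replicate 2 of the 72 h group and -0.93 without replicate 1 of the 12 h group. None of these was called.

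Hmox1, heme oxygenase 1, which degrades haem to biliverdin, iron and carbon monoxide, was higher at all 3 times. Its probe at chr8:77624406-77624466 on mm9 read 0.10, 0.35 and 0.72 in the sham mice, 3.18, 3.28 and 3.45 in the 3 h mice, 3.67, 3.03 and 3.57 in the 12 h mice, and 4.19, 3.80 and 4.46 in the 72 h mice. Every cauterized mouse lay above every sham mouse, and the 72 h mice lay above the 3 h and the 12 h mice. The differences from sham were 2.91 at 3 h (limma adjusted p = 5.226e-05), 3.03 at 12 h (limma adjusted p = 2.51e-05) and then 3.76 at 72 h (limma adjusted p = 1.216e-05), each with an SE of 0.23. These are 7.54-fold, 8.19-fold and 13.6-fold.

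Between times, the 72 h level of Hmox1 differed from that at 3 h by 0.85 (95% interval 0.34 to 1.35, limma adjusted p = 0.0185) and from that at 12 h by 0.73 (95% interval 0.22 to 1.23, limma adjusted p = 0.0513), neither of which reached 2-fold. With slide as a block the 72 h difference from sham was 3.54 (limma adjusted p = 0.00425) and still called. A second Hmox1 probe was not well above background on any array.

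Slc7a11, the cystine importer that supplies cysteine for glutathione, was called higher than sham at all 3 times. Its brightest probe, at chr3:50176047-50176106 on mm9, read -4.16, -5.46 and -3.97 in the sham mice, -2.03, -0.92 and -0.97 in the 3 h mice, 0.82, -0.01 and -0.04 in the 12 h mice, and -1.58, -1.78 and -1.23 in the 72 h mice. The sham mice were apart from and below all others, and the 12 h mice above all others. The differences from sham were 3.22 at 3 h (limma adjusted p = 0.000934), 4.79 at 12 h (limma adjusted p = 7.436e-05) and then 3.00 at 72 h (limma adjusted p = 0.0013), each with an SE of 0.43. From 12 h to 72 h Slc7a11 fell by 1.79 (SE 0.43, limma adjusted p = 0.0183), which was not called when slide was blocked (-1.49, limma adjusted p = 0.238) or without replicate 1 of the 12 h group or replicate 1 or 2 of the 72 h group (limma adjusted p of 0.0562 to 0.0681).

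The size of these differences rests on a dim signal, since the probe was well above background on 11 of 12 arrays and not in replicate 2 of the sham group. With normexp background correction, which adds an offset of 50 to the intensities, the differences were 1.15, 2.27 and 0.92 in place of 3.22, 4.79 and 3.00, and the last was not called. With slide as a block the 72 h difference was 3.44 (limma adjusted p = 0.0561). The second probe of the gene, also well above background on 11 arrays, gave 1.87 at 3 h (limma adjusted p = 0.0563), 3.40 at 12 h (limma adjusted p = 0.00311, called) and 1.65 at 72 h (limma adjusted p = 0.0837). The third was well above background on 6 arrays and the fourth on 0, and neither was called at any time. The mean over the probes was called at 12 h, with 2.49, and not at 3 h or 72 h.

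**Figure D3:**
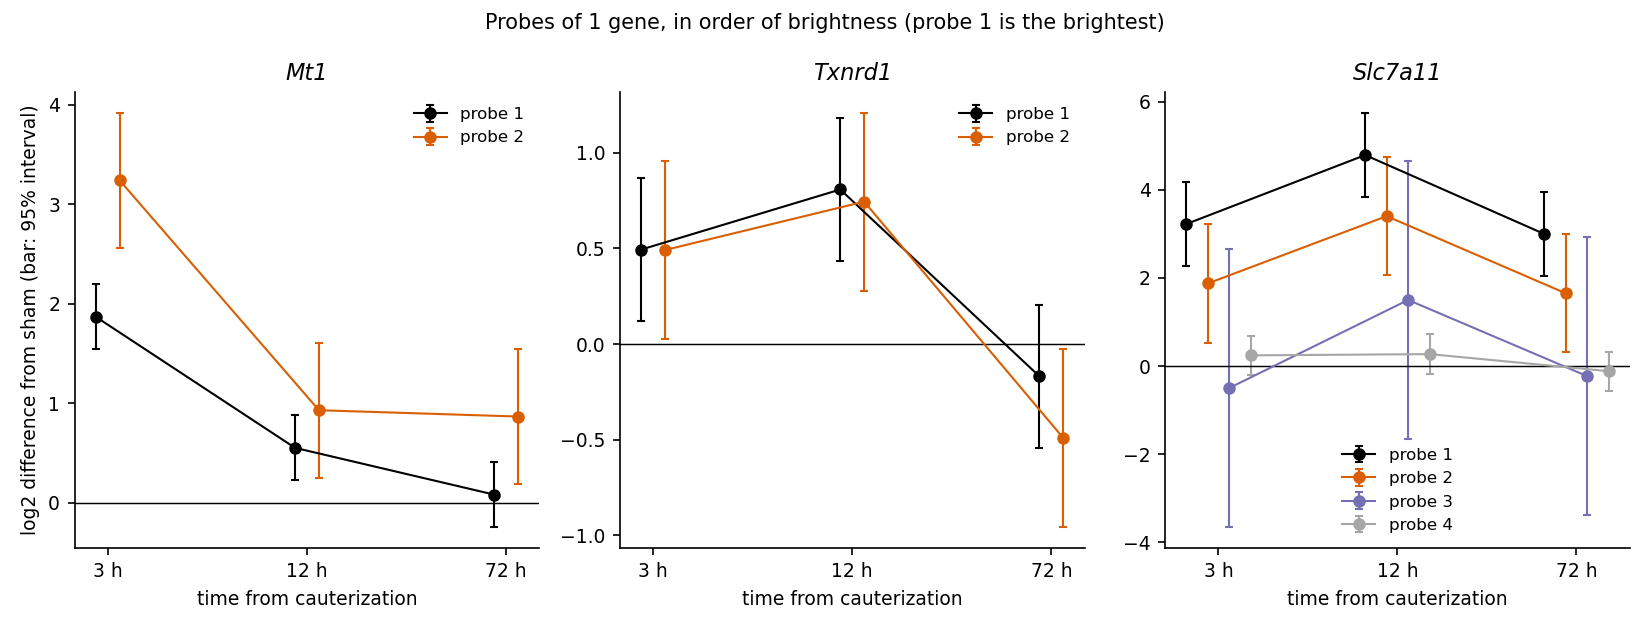
Lines give the log2 difference from sham (y axis) at each time (x axis) for each probe of Mt1, Txnrd1 and Slc7a11, with the 95% interval from limma; probe 1 is the brightest. Both Mt1 probes are highest at 3 h and both Txnrd1 probes at 12 h, while the 2 dimmest Slc7a11 probes stay near 0 or have intervals that span it.

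Gclm, the modifier subunit of the enzyme that makes the glutathione precursor, had no called difference from sham. It read 3.60, 3.88 and 3.59 in the sham mice, 3.36, 3.39 and 3.31 in the 3 h mice, 3.53, 3.71 and 3.43 in the 12 h mice, and 2.73, 3.09 and 3.19 in the 72 h mice. The 72 h mice lay below all others. The differences were -0.34 at 3 h (95% interval -0.66 to -0.02, limma adjusted p = 0.129), -0.13 at 12 h (95% interval -0.45 to 0.18) and -0.69 at 72 h (95% interval -1.01 to -0.37, limma adjusted p = 0.00826).

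Gpx2, the glutathione peroxidase of the gastrointestinal epithelium, rose at 12 h. It read 6.05, 7.05 and 7.56 in the sham mice, 7.83, 7.58 and 7.40 in the 3 h mice, 7.94, 8.20 and 8.08 in the 12 h mice, and 6.68, 7.07 and 7.30 in the 72 h mice. The sham mice were spread widely, with replicate 1 the lowest, and only the 12 h mice lay above all sham mice. The rise at 12 h was 1.19 (SE 0.32, limma adjusted p = 0.0266), while the values at 3 h and 72 h were 0.72 (limma adjusted p = 0.149) and 0.13 (limma adjusted p = 0.806). From 12 h to 72 h Gpx2 fell by 1.06 (limma adjusted p = 0.0484).

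The 3 h value was 0.30 without sham replicate 1, and 1.05 without sham replicate 3 (limma adjusted p = 0.0377), which was called. Both Gpx2 calls were close to the threshold. Without sham replicate 1 the 12 h difference was 0.77 (limma adjusted p = 0.0508), when slide was blocked the limma adjusted p was 0.0603, and without any single 12 h mouse the adjusted p was 0.0567 to 0.0798. The call from 12 h to 72 h was lost when slide was blocked (limma adjusted p = 0.252) and without any single 3 h, 12 h or 72 h mouse (limma adjusted p of 0.0564 to 0.154). The gene Gpx2-ps1, a pseudogene copy of Gpx2, has a probe of its own with differences of 0.70, 1.34 and 0.09, so that signal from the copies may be shared and the source of either is uncertain.

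Srxn1, sulfiredoxin, which repairs overoxidized peroxiredoxins, and Txnrd1, the cytosolic thioredoxin reductase, were higher at 3 h and 12 h than at 72 h. Srxn1 read 4.51, 4.72 and 4.78 in the sham mice, 5.34, 5.55 and 5.44 in the 3 h mice, 5.40, 5.58 and 5.28 in the 12 h mice, and 3.88, 4.15 and 4.35 in the 72 h mice. The 3 h and 12 h mice lay above the sham mice and the 72 h mice below them. The differences of 0.77 at 3 h (SE 0.14, limma adjusted p = 0.00492), 0.75 at 12 h (SE 0.14, limma adjusted p = 0.00461) and -0.54 at 72 h (SE 0.14, limma adjusted p = 0.0241) were all below 2-fold. Srxn1 fell from 12 h to 72 h by 1.29 (limma adjusted p = 0.000481) and from 3 h to 72 h by 1.32 (limma adjusted p = 0.000207). When slide was blocked these were -1.16 (limma adjusted p = 0.0176) and -1.11 (limma adjusted p = 0.0535), the latter not called.

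Txnrd1 read 4.25, 4.62 and 4.72 in the sham mice, 5.20, 4.93 and 4.94 in the 3 h mice, 5.35, 5.55 and 5.12 in the 12 h mice, and 4.16, 4.40 and 4.52 in the 72 h mice. The 12 h mice lay above the sham and 72 h mice, which overlapped. The differences from sham were 0.49 at 3 h (limma adjusted p = 0.0693), 0.81 at 12 h (SE 0.17, limma adjusted p = 0.00726) and then -0.17 at 72 h (limma adjusted p = 0.528), none above 2-fold. From 12 h to 72 h the brighter probe gave -0.98 (limma adjusted p = 0.0039), just short of 2-fold, and the second probe gave -1.24 (limma adjusted p = 0.00355), which was called. The 2 probes lie at chr10:82360230-82360289 and chr10:82338379-82338438 on mm9.

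Nqo1, a quinone reductase and a standard reporter of NRF2 activity, was not called at any time, and its values were lowest at 72 h. It read 1.87, 2.01 and 1.97 in the sham mice, 1.86, 2.01 and 1.64 in the 3 h mice, 1.38, 1.63 and 1.24 in the 12 h mice, and 0.71, 1.33 and 1.12 in the 72 h mice. The sham and 3 h mice overlapped, and all 12 h and 72 h mice lay below both. The differences from sham were -0.11 at 3 h (95% interval -0.50 to 0.27), -0.53 at 12 h (95% interval -0.92 to -0.15, limma adjusted p = 0.0544) and -0.89 at 72 h (95% interval -1.28 to -0.51, limma adjusted p = 0.00578).

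Sod2, the mitochondrial superoxide dismutase, which is also induced by inflammatory cytokines, read 1.48, 1.71 and 1.84 in the sham mice, 2.62, 2.63 and 2.82 in the 3 h mice, 2.95, 2.76 and 3.11 in the 12 h mice, and 1.87, 1.98 and 2.62 in the 72 h mice. The 3 h and 12 h mice lay well above the sham mice, and 1 of the 72 h mice reached the 3 h range. Sod2 rose by 1.01 at 3 h (SE 0.20, limma adjusted p = 0.00611) and by 1.26 at 12 h (SE 0.20, limma adjusted p = 0.00152), and the value at 72 h was 0.48 (95% interval 0.05 to 0.92, limma adjusted p = 0.116). The 3 h value stood at the threshold. It was 0.87 after quantile normalization, 0.90 with the 75th percentile over probes above background and 0.97 with normexp. It was 0.91 without sham replicate 1 and 0.94 without replicate 3 of the 3 h group. None of these was called.

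The antioxidant response element core TGACNNNGC was looked for in the same windows on either strand. RefSeq windows were matched for 9 of the 10 genes, with 3 starts for Txnrd1, and 12.4% of all windows held the core. It was found in Mt2, Gclm, Srxn1 and 1 of the Txnrd1 windows. The upstream matches in Mt2, Gclm and Txnrd1 are shown with 15 bases on each side and the core in capitals, to set the letters beside the courses of these genes.

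Mt2, chr8:94172368-94172617 window: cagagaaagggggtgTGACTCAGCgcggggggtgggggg
Gclm, chr3:122245307-122245556 window: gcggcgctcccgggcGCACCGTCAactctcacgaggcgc
Txnrd1, chr10:82858956-82859205 window: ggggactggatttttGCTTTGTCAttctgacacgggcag

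The Mt2 core lay 79 to 71 bases before the start, the Gclm core 134 to 126 and the Txnrd1 core 92 to 84, the last 2 on the minus strand. In Gclm the core overlapped a metal response element core by letters. Mt2 was called higher at 3 h and 12 h, whereas Gclm and Txnrd1 were not called against sham.

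Several of these genes fell again between times. From 3 h to 12 h, Mt1 and Mt2 fell and no gene of the 10 was called higher, against 3.46% of all genes called, 1.56% lower and 1.89% higher. Slc7a11 gave 1.57 from 3 h to 12 h (SE 0.43, limma adjusted p = 0.052), just short of the threshold, and was called with 5 alternatives, among them normexp (1.12, limma adjusted p = 0.00433), a filter on dim probes (limma adjusted p = 0.0272) and leaving out sham replicate 2 (limma adjusted p = 0.0283). From 12 h to 72 h, 4 genes fell, namely Slc7a11, Srxn1, Gpx2 and Mt2, and none was called higher, against 7.52% of all genes called, 3.19% lower and 4.33% higher. From 3 h to 72 h, Mt2, Mt1 and Srxn1 fell and none was called higher, against 11.7% of all genes called, 5.51% lower and 6.19% higher. After quantile normalization Hmox1 was called higher from 3 h to 72 h (1.15, limma adjusted p = 0.00572) and Srxn1 was no longer called (-0.93), and without replicate 2 of the 72 h group Hmox1 was called as well (1.02, limma adjusted p = 0.0139). The median of the 10 genes from 12 h to 72 h was -0.88, beside -0.14 over all genes. Within the second slide, where 1 of the 12 h mice is set against the 3 of the 72 h group, the values from 12 h to 72 h were -1.16 for Srxn1, -1.01 for Mt2, -1.49 for Slc7a11 and -1.06 for Gpx2, none of them called in a fit that leaves too few arrays for a lost call to bear on their stability. Within the first slide, with 2 of the 12 h mice, 4 of the 5 genes were again called at 12 h, all but Gpx2.

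With slide as a block, which separates the slide from the 72 h group through a single array, Hmox1 was the only one of the 10 genes called at 72 h. The slide and the 72 h comparison with sham can be told apart only through that 12 h array, as no sham array shared a slide with a 72 h array.

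Other genes of the same systems were read from lists by role, in which 92 of 93 genes were measured. Over all lists, 11 of 92 rose and 0 fell at 3 h, against 3.26% and 4.11% of all genes. At 12 h 18 rose and 8 fell, against 4.1% and 4.96%, and at 72 h 18 rose and 4 fell, against 4.55% and 4.3%, so that the share that fell at 72 h was near that of all genes. The same shares of all genes stand beside the counts of each list and of the cell markers below. A single call in so short a list says little about the list. Of 8 NRF2 regulators, 4 rose at 3 h, 2 at 12 h and 1 at 72 h, and 0 fell. Maff, a small MAF partner of NRF2, rose by 3.00 at 3 h (SE 0.20, limma adjusted p = 2.342e-05), then by 2.13 at 12 h and 1.19 at 72 h. Mafk rose by 1.32 at 3 h and 1.29 at 12 h, and the repressor Bach1 rose by 1.28 at 3 h. Nfe2l2 itself had values of -0.14, -0.26 and -0.18, with a limma adjusted p of 0.259 or more, and the inhibitor Keap1 had -0.43, -0.35 and -0.55, none of which was called.

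Of 15 measured genes of glutathione synthesis and use, 1 rose at 3 h, 4 rose and 1 fell at 12 h, and 2 fell at 72 h. Chac1, which degrades glutathione, rose by 2.25 at 3 h (SE 0.57, limma adjusted p = 0.0217) and 2.28 at 12 h. Its 12 h mice were spread widely, from -0.40 to 2.15 (SD 1.40), above the sham range of -2.00 to -1.24. At 12 h the transferase Gsta2 rose by 1.90 and Slc3a2, the partner chain of Slc7a11, by 1.12, whereas the transferase Gstm1 fell by 1.27. At 72 h Ggt1, which breaks down extracellular glutathione, fell by 1.28 and the transferase Gstp1 by 1.17. The thioredoxin and peroxiredoxin list held no called gene at 3 h or 72 h among 12, and at 12 h 1 fell, the mitochondrial reductase Txnrd2, by 1.08. None of the 6 enzymes of NADPH supply was called at any time, with differences between -0.69 and 0.57.

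The enzymes that remove superoxide and peroxide were called mainly at 72 h. Of 9, none was called at 3 h, 1 fell at 12 h and 4 rose at 72 h. The one that fell was Cat, catalase, by 1.05. At 72 h Gpx7, a peroxidase of the endoplasmic reticulum, rose by 2.95 (SE 0.36, limma adjusted p = 0.000544), the secreted Gpx3 by 1.69 and Gpx8 by 1.66. Of 10 detoxification enzymes, none was called at 3 h. At 12 h Akr1b8 rose by 1.31 while Aox1, Ephx1 and Ugdh fell by 1.69, 1.45 and 1.43, and at 72 h Ugdh fell by 1.25.

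Among 11 genes of haem and iron handling, 1 rose at 3 h and 3 rose at 72 h, while at 12 h 1 rose and 1 fell. Hp, the haemoglobin scavenger haptoglobin, rose by 4.35 at 3 h (SE 0.43, limma adjusted p = 0.00018), then by 6.46 at 12 h and 7.63 at 72 h. Slc48a1, a haem transporter, fell by 1.26 at 12 h. At 72 h Hpx, the haem scavenger hemopexin, was at least 4.21-fold higher than in the sham mice, where it was not well above background (limma adjusted p = 0.0222), and Cd163, the macrophage receptor for haptoglobin and haemoglobin, rose by 2.17. Of 9 other metallothionein and zinc genes, 1 rose at 3 h, 2 rose and 1 fell at 12 h, and 1 rose and 1 fell at 72 h. Mt4 rose by 1.47 at 3 h, the zinc importer Slc39a10 by 1.80 at 12 h, and Slc39a14 by 1.07 at 12 h and 2.14-fold at 72 h. Slc30a10, a manganese exporter, fell by 2.89 at 12 h and 4.25 at 72 h. Mtf1 had 0.05, 0.08 and -0.23, none of which was called.

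Some of the enzymes that make oxidants were called higher at each time. Of 12, 4 rose at 3 h, 8 at 12 h and 9 at 72 h, and 0 fell. The oxidase Nox4 had -0.61, -0.25 and -0.22, none of which was called. At 3 h Duoxa2, Duox2 and Nos2 rose by 2.63, 2.60 and 2.39. At 12 h Duox2, the dual oxidase of the epithelial surface, rose by 3.54, the inducible nitric oxide synthase Nos2 by 3.45 and Ncf1, a subunit of the phagocyte oxidase, by 2.79. At 72 h Nos2 rose by 3.86, the myeloperoxidase Mpo by 2.99 and Ncf1 by 2.19.

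**Figure D4:**
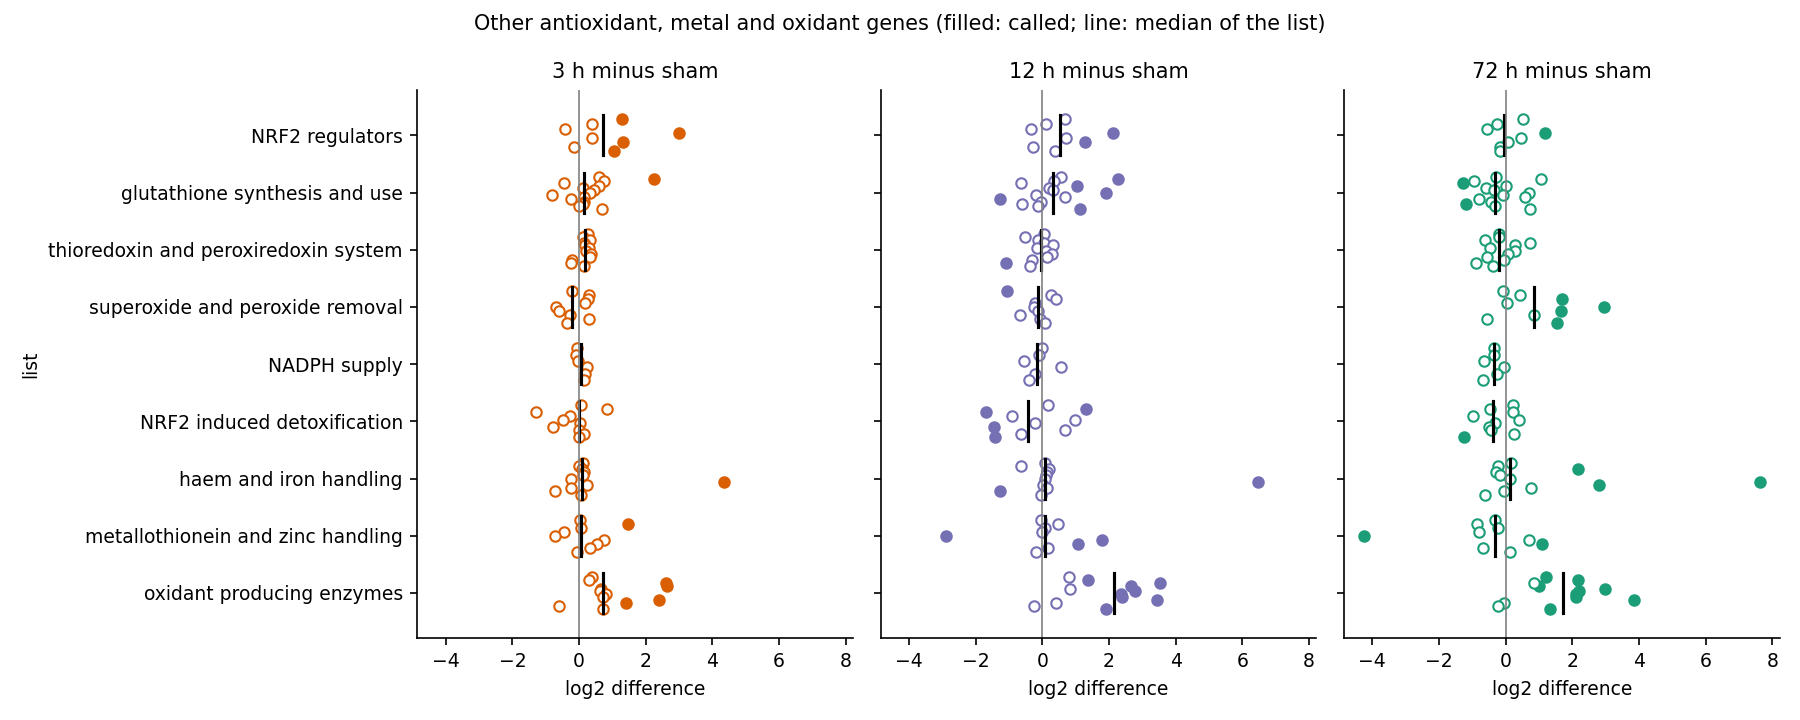
Each point is the log2 difference from sham (x axis) of a gene in a list (y axis), 1 panel for each time, filled where called, with a line at the median of the list. Of the list medians, that of the oxidant producing enzymes is the highest at 12 h (2.14) and 72 h (1.71), the furthest single point at both times is Hp, and the NADPH supply enzymes hold no filled point.

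Markers of other cells moved at the same times as these genes. The 9 red cell markers measured had a summed level, in multiples of the 75th percentile, of 16.6 to 36.2 in the sham mice, 129 to 604 at 3 h, 57.4 to 96.3 at 12 h and 9.38 to 44.1 at 72 h. At 3 h 6 of them rose, among them Hbb-b1 by 3.72. Of 10 neutrophil markers, 8, 9 and 7 rose over the 3 times, and their sum was 81.1 to 92.3 in the sham mice, 364 to 610 in the 3 h mice, 837 to 883 in the 12 h mice and 355 to 648 in the 72 h mice. In the sham mice most of this sum was the receptor Csf3r, whose mean level was 82.7 there and 61.0 at 3 h, with differences from sham of -0.44, -0.34 and -0.40, not called. The other 9 markers, summed apart after the data were seen, gave 2.89 to 8.67 in the sham mice, 306 to 545 in the 3 h mice, 766 to 820 in the 12 h mice and 295 to 591 in the 72 h mice. Of 10 macrophage markers, 1, 4 and 10 rose, and in the same order of groups their sum was 39.8 to 43.3, 53.3 to 81.3, 107 to 135 and 143 to 155. Their median difference from sham was 0.21, -0.07 and 1.85, so the higher sum at 12 h came from part of the list. From 12 h to 72 h, 8 of these markers rose and 1 fell.

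Epithelial markers had sums of 1398 to 1582 in the sham mice, 1999 to 2179 at 3 h, 1523 to 1836 at 12 h and 784 to 1135 at 72 h, and of 12, 1 rose at 3 h, 1 fell at 12 h and 2 fell at 72 h. Smooth muscle markers had sums of 525 to 557, 288 to 349, 167 to 270 and 192 to 255, and of 6, 0 fell at 3 h, 6 at 12 h and 5 at 72 h. Of 6 mesothelial markers, 2 fell at 3 h and at 12 h and 2 rose at 72 h, with sums of 5.10 to 7.71, 6.32 to 7.13, 5.70 to 6.51 and 8.55 to 15.2. In replicates 1, 2 and 3 of the 3 h mice, the red cell sum was 604, 167 and 129. Hmox1 was 3.18, 3.28 and 3.45 in the same order, and so few mice cannot relate these measures. The part of these cells in the results was not tested.

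**Figure D5:**
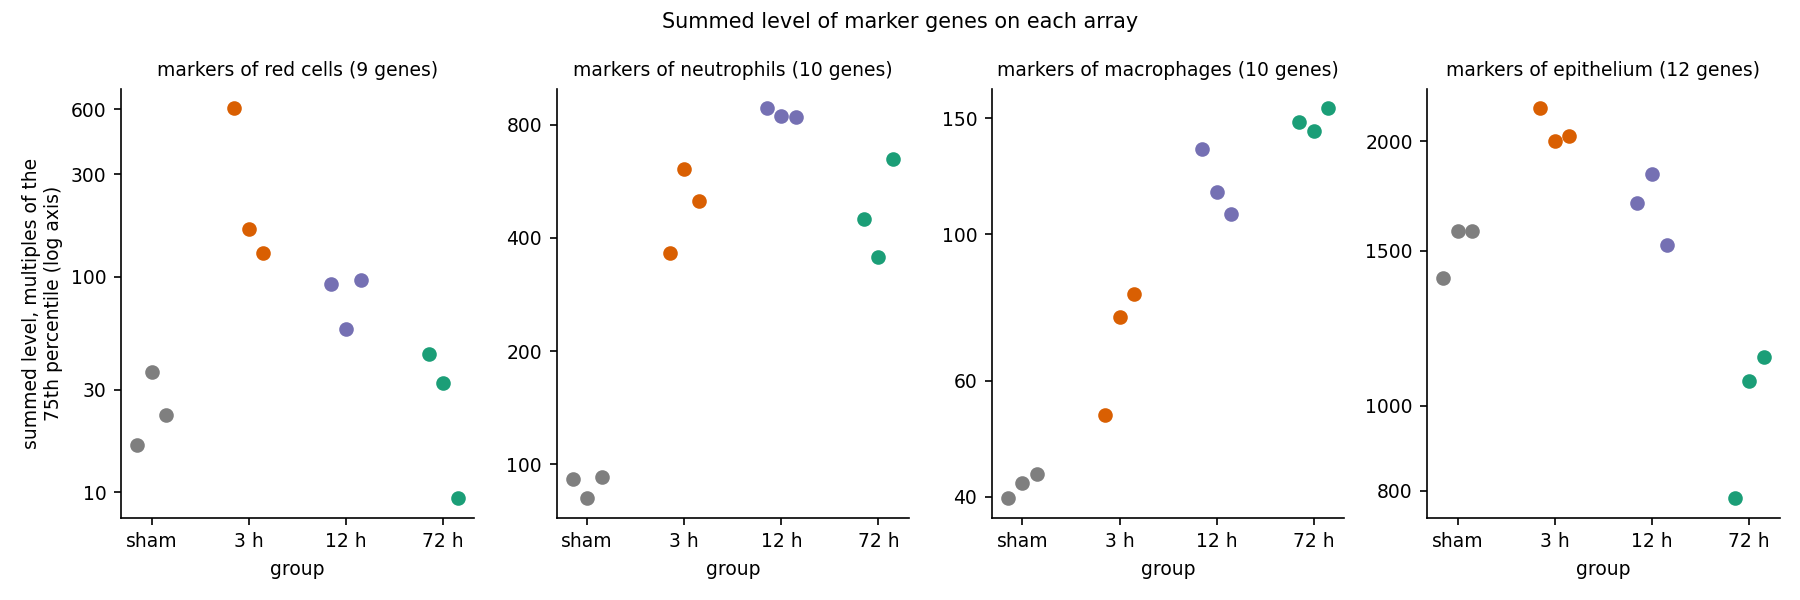
Points give, for each mouse by group (x axis), the summed level of the markers of 4 cell types in multiples of the 75th percentile of the array (y axis, log scale). Red cell markers are highest at 3 h, neutrophil markers at 12 h and macrophage markers at 72 h, where epithelial markers are lowest.

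The genes whose pattern was most like that of 3 of these genes were ranked by Pearson's r over the 12 arrays, among 20791 other genes well above background on all arrays. For Hmox1 they were the unnamed transcript ENSMUST00000163110 (r = 0.982), Sh3pxd2b (r = 0.982) and Serpina3n (r = 0.981). For Mt1 they were Phox2a (r = 0.974), Myc (r = 0.972) and Gnl2 (r = 0.969), of which Phox2a had differences of 4.61, 1.99 and -0.02 at the 3 times. For Gpx2 they were Gpx2-ps1 (r = 0.994), Pop5 (r = 0.967) and Ptges3 (r = 0.964). The 12 arrays fall into the 4 groups and share the 2 slides, so each r describes these arrays only.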

How the data were processed

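Cecum RNA of 12 mice was labelled with Cy3 and hybridized to Agilent SurePrint G3 Mouse GE v2 arrays. The authors deposited the scanner output, made with Feature Extraction 11.5.1.1, with a linear, background-corrected intensity for every spot, not normalized between arrays, and with mm9 probe coordinates. A deposited table of log2 values, normalized by the authors to the 75th percentile and centred on row medians, served as an alternative. No annotation of mm9 was used, so exons were not assigned.

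Control spots and 53 to 152 outlier spots an array were left out, spots of a probe were averaged, and the log2 intensity of 56605 probes was set relative to the 75th percentile of its array. R 4.3.3 and limma 3.58.1 (lmFit, contrasts.fit and eBayes) were used to fit group means over 12 arrays, with p adjusted by Benjamini-Hochberg over all probes. Of several probes, the one with the highest mean stood for the gene. The scripts were tested on simulated data. The methods place the sham control at 0 h, and groups came from the labels. Replicates are separate mice as far as the labels tell, otherwise p-values measure only the spread between these samples, and 3 arrays a group limit the precision.

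The members and gene lists were chosen with earlier results of these data known. All 10 members are named with every probe. Of each list, up to 3 called genes with the largest change at a time are named. Any gene called against the direction of most of its list is named too. The regulators Nfe2l2, Keap1 and Mtf1 and the oxidase Nox4 were chosen after their values were seen. Alternatives covered the scaling, the background correction, dim probes, outlier spots, slide and replicate blocks, the moderation, the test, the probe rule, the fold threshold and each array left out.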

Additional observations from a re-analysis of the deposited data

Results flagged for a closer look

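The differences from sham of 5 genes differed between times by limma's test of the difference itself. Mt1 was lower at 12 h than at 3 h by -1.32 and at 72 h than at 3 h by -1.79. Mt2 was lower at 12 h than at 3 h (-1.14), at 72 h than at 12 h (-1.004) and at 72 h than at 3 h (-2.15). Srxn1 was lower at 72 h than at 12 h (-1.29) and than at 3 h (-1.32). From 12 h to 72 h Slc7a11 had -1.79 and Gpx2 -1.06. Groups of 3 mice were not tested for outlying samples.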

How the results depend on the processing

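The counts of the 10 genes called were 5 at 3 h and 5 at 12 h against sham, 2 at 72 h, 2 from 3 h to 12 h, 4 from 12 h to 72 h and 3 from 3 h to 72 h. From 12 h to 72 h the count was 2 after quantile normalization, 2 with the 75th percentile over probes above background, 2 with slide as a block, 0 within the second slide (too few arrays for that to bear on stability), and 1 to 5 on leaving out single mice (1 without replicate 1 of the 12 h group or replicate 2 of the 72 h group, 2 without replicate 1 of the 72 h group). From 3 h to 12 h it was 1 after quantile normalization, where Mt2 was no longer called. At 72 h against sham the count was 1 with normexp, with slide as a block and with the mean of all probes. Without the fold change threshold it was 8 at 12 h, 6 at 72 h, 7 from 12 h to 72 h and 6 from 3 h to 72 h. Of all 37074 genes, 7850, 7679, 6872 and 14289 passed in the same 4 comparisons. The genes that passed at 72 h against sham were Hmox1, Slc7a11 and Mt2, higher, and Nqo1, Gclm and Srxn1, lower. From 3 h to 72 h Hmox1 was higher and the others that passed were lower. The methods name a paired t-test for comparing 2 groups, and no test for the arrays. By that t-test, paired here on the replicate number, the count after Benjamini-Hochberg was 0 in all 6 comparisons. With an unadjusted p below 0.05 it was 5, 4, 2, 2, 4 and 3. Over all genes none was called after Benjamini-Hochberg, except 1 from 3 h to 12 h. The 0 therefore does not bear on the stability of the 10 genes. The within-slide fits were chosen after seeing the data.

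Same-numbered arrays did not deviate together, so no pairing by number was seen, though 3 arrays a group cannot exclude it. With the replicate number as a block, the counts were 5, 5, 2, 2, 3 and 3, and Gpx2 from 12 h to 72 h was -1.06 (limma adjusted p = 0.0543).

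Differences near 0 and never called changed sign. From 3 h to 12 h, where Srxn1 was -0.02, it was 0.139 after quantile normalization, 0.0348 with the percentile over probes above background, 0.00711 with normexp, 0.0462 blocking on slide or within the first slide, and -0.102 to 0.0462 on leaving out single mice, while Hmox1 was -0.00574 to 0.316 on leaving out single mice. Blocking on slide, Txnrd1 was 0.163 at 72 h against sham and Slc7a11 0.221 from 3 h to 72 h. On leaving out single mice, the 72 h difference from sham was -0.289 to 0.465 for Gpx2 and -0.0293 to 0.206 for Mt1.

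Over all genes, 2732, 3360, 3282, 1282, 2788 and 4339 were called in the same order, against 837, 1327, 1259, 574, 1068 and 1569 with normexp and 6933, 7850, 7679, 3327, 6872 and 14289 without the fold change threshold. With slide as a block, 1152 were called at 72 h against sham, 1225 from 12 h to 72 h and 1152 from 3 h to 72 h, and 7 of the 10 genes passed the F-test. Within the first slide 837 were called from 3 h to 12 h. By the t-test paired on the replicate number, after Benjamini-Hochberg, 1 gene was called, from 3 h to 12 h, with the limit given above. The percentile over probes above background moved the median of all probes from 0.06 to -0.05 at 3 h and from -0.24 to -0.12 from 3 h to 72 h.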
